A study of Mus musculus with 14 samples.

Results

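The 40 genes described here act in DNA replication and in mitosis, the steps of cell division in which chromosomes are copied and then separated. Members were taken by gene symbol, 14 of them with roles before or during replication and 26 with roles in mitosis. Probes were found for 39 members, all 14 replication genes and 25 mitosis genes, so that the members made up 39 of 19532 named genes and 63 of 32664 probes with 1 gene symbol. Ccnb1, cyclin B1, matched no probe and is not analysed here. A single probe read 20 of the members, and the probes of the other 19 were averaged.

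RNA was measured on 14 Agilent arrays, each setting 1 sample, labelled with Cy5, against a universal mouse reference RNA labelled with Cy3. Tsk2 skin came from 4 female mice aged 4 weeks with the Tsk2 mutation of Col3a1, the gene of the type III collagen chain, which the series title writes as heterozygous (Tsk2/+), and WT skin came from 4 wild-type females of the same age. Tsk2 fibroblasts were 3 samples of Col3a1 knockout mouse fibroblasts transfected with the Tsk2 form of Col3a1, and WT fibroblasts were 3 samples of these knockout cells transfected with WT Col3a1. All 6 fibroblast samples therefore carried the knockout, and no untransfected cells were analysed here. The sources used here name neither the mouse strain nor the vector of the transfection. The design text counts 3 mice per genotype where the labels hold 4, and all 4 were used. Skin replicate numbers are names given in accession order. The fibroblast numbers come from the labels, where WT replicates 3A and 3B share a number. No label names separate cultures or transfections for them, and fibroblast p-values therefore reflect the spread among these samples only, which could be technical.

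Before a cell divides, the licensing factors Cdc6 and Cdt1 load the Mcm helicase onto replication origins, cyclin E with its kinase starts DNA synthesis, and ribonucleotide reductase and thymidylate synthase supply the building blocks. Mitosis then runs under Cdk1 and its cyclins, with kinases of the Aurora and Polo families, motor proteins of the kinesin family, centromere proteins and the spindle checkpoint, and ends when the anaphase-promoting complex marks cyclins for destruction. Replication genes are known as targets of E2F factors, and many mitosis genes as targets of complexes that bind the CHR element and of NF-Y, which binds CCAAT boxes. In skin, dividing cells lie mainly in the basal layer of the epidermis and in the matrix of growing hair follicles, whose activity comes and goes with the hair cycle.

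All values are log2 ratios of the sample over the reference, on which 0 is the level of the reference and a difference of 1 is a 2-fold change. Since each ratio also holds the gene's level in the reference, ratios of different genes are not compared as amounts of RNA. The number of arrays limits the precision. Numbers that recur at least 50 times on 1 array, taken to mark dim probes, are called repeated values and made up 133 of the 882 values of the member probes (15.1%). WT skin replicate 2 listed 30.1% of its probes at exactly 0, against 0.758% to 11.6% on the other arrays. The labelled tissues were set against their markers. All 8 basal and all 8 suprabasal keratinocyte genes rose in WT skin over WT fibroblasts, and the basal mean lay between 2.77 and 2.94 in WT skin, against -0.69 to -0.59 in WT fibroblasts. The mean of the 12 measured fibroblast genes lay above the reference in all 6 fibroblast samples, at 1.03 to 1.23 with the Tsk2 allele and 0.76 to 0.84 with the WT allele. Col3a1, the altered gene, averaged over 3 probes, was -2.32 to -2.20 in Tsk2 fibroblasts and -2.39 to -2.24 in WT fibroblasts, and 2.17 to 2.58 in Tsk2 skin against 1.14 to 2.21 in WT skin. Where its probes lie relative to the deleted and the transfected stretch is not given, and the values check neither.

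Promoter windows of 300 bases, from 250 before to 50 after the gene start, were read from RefSeq sequence of build GRCm38.p6 for 33 of the 39 measured members. Aurkb, Tpx2, Mcm4, Ccne2, Ccna2 and Kif20a had no window. The parts shown here are those of Mki67 and Aurka for mitosis and of Mcm5 and Mcm2 for replication, the members with the lowest p between WT skin and WT fibroblasts in their class among those named by a fixed rule and holding a searched motif. Capitals mark the motifs, which were the E2F site written as TTCGCGC or with the letters TTGGCGC or with TTCCCGC or else with TTGCCGC, the CHR element written as TTTGAA, and the CCAAT box, each on both strands.
Mki67 (chr7:135716380-135716577, minus strand): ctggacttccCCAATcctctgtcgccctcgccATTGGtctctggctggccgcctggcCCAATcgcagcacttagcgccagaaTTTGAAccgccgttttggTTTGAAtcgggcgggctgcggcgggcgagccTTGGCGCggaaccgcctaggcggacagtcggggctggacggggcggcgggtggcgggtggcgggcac
Aurka (chr2:172370571-172370631, minus strand): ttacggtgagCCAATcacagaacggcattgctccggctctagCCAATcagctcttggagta
Mcm5 (chr8:75109335-75109508, plus strand): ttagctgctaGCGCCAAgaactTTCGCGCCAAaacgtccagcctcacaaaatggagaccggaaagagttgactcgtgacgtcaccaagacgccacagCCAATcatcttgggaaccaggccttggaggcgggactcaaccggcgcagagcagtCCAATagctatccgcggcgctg
Mcm2 (chr6:88898781-88898965, minus strand): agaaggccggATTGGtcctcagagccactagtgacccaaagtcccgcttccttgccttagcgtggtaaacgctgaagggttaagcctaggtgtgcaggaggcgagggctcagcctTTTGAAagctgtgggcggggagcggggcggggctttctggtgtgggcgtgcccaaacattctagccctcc
Mki67, which codes for a protein that coats mitotic chromosomes and is the usual mark of dividing cells, held 3 CCAAT boxes, 2 CHR elements and 1 E2F site. Aurka, a kinase of the spindle poles, held 2 CCAAT boxes in the part shown and 1 CHR element 32 bases after the start. In Mcm5, a subunit of the replicative helicase, 3 E2F sites were found, of which those at 152 and 149 bases before the start overlap. Mcm2, another subunit, had no match to the E2F letters and held 1 CHR element and 1 CCAAT box.

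E2F sites and CHR elements were spread differently over the 2 classes. An E2F site was present in 8 of 12 replication windows (66.7%), those of Cdc6, Cdt1, Mcm3, Mcm5, Mcm6, Mcm7, Rrm1 and Rrm2, and in 2 of 21 mitosis windows (9.52%), those of Mki67 and Cdk1, where 9.69% of all 27025 windows held it. The CHR element was present in 16 of 21 mitosis windows (76.2%) and in 1 of 12 replication windows (8.33%), against 18.1% of all windows. CCAAT boxes were found in 18 of 21 mitosis windows and 8 of 12 replication windows, against 37.9% of all, and 15 of 21 mitosis windows held both a CHR element and a CCAAT box, against 7.12% of all. Among 39 other replication genes with a window 53.8% held an E2F site and 12.8% a CHR element, and among 53 other mitosis genes 24.5% and 60.4% did. With only the 250 bases before the start, E2F sites were counted in 6 of 12 replication windows and CHR elements in 8 of 21 mitosis windows, so that many of the CHR matches lay within 50 bases after the start. These are matches of letters, not measured binding, and a window without a match says only that these letters are not in it.

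**Figure D1:**
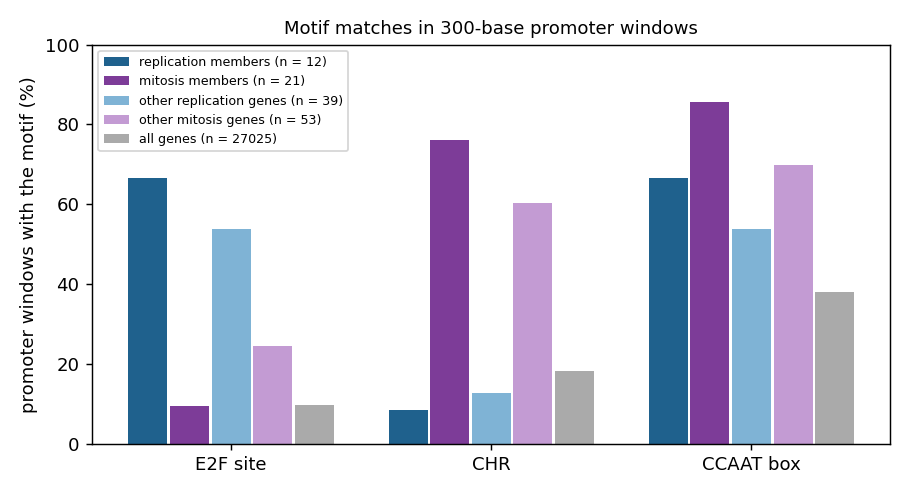
Share of 300-base promoter windows (vertical axis, percent) that held each motif (horizontal axis) in the replication and mitosis members, in other genes of both kinds and in all 27025 windows. E2F sites stand at 66.7% in the replication members and 9.52% in the mitosis members, and CHR elements at 8.33% and 76.2%.

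Both classes lay below the reference on every array, and the mitosis mean lay below the replication mean on all 14. The replication mean was -0.69, -1.86, -0.63 and -1.88 in Tsk2 skin 1 to 4, against -0.90, -1.04, -0.93 and -0.68 in WT skin 1 to 4. In Tsk2 fibroblasts 1 to 3 it was -0.77, -0.69 and -0.77, against -0.70, -0.53 and -0.46 in WT fibroblasts 1, 3A and 3B. The mitosis mean was -0.95, -2.06, -0.86 and -2.32 in Tsk2 skin and -1.10, -1.15, -1.14 and -0.69 in WT skin. So the same 2 Tsk2 mice, 2 and 4, stood below all other skin arrays in both classes, while Tsk2 mice 1 and 3 lay within or above the WT range in the replication mean and within it in the mitosis mean. In fibroblasts the mitosis mean was -0.89, -0.98 and -0.98 with the Tsk2 allele, against -0.94, -0.80 and -0.80 with the WT allele.

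The gap between the classes, mitosis minus replication, averaged -0.28 ± 0.10 in Tsk2 skin and -0.13 ± 0.091 in WT skin (SD, n = 4 each), and -0.21 ± 0.086 in Tsk2 fibroblasts and -0.29 ± 0.054 in WT fibroblasts (SD, n = 3 each). On single skin arrays it was -0.26, -0.20, -0.23 and -0.43 in Tsk2 mice 1 to 4, against -0.20, -0.11, -0.21 and -0.014 in WT mice 1 to 4, and the genotypes overlapped only through Tsk2 mouse 2 and WT mouse 3. Whether they overlapped depended on the setting. With quantile normalization the gap was -0.29, -0.31, -0.28 and -0.47 in Tsk2 mice, against -0.20, -0.089, -0.22 and -0.034 in WT mice, without overlap, and the genotypes were also apart with exact zeros missing and without probes at repeated values on at least 50% of the arrays. They overlapped under the other settings tried. Tsk2 mouse 2, low in both classes, lay inside the WT range at -0.20, and below it at -0.31 with quantile normalization, at -0.31 without the probes at repeated values and at -0.40 with medians over members. In fibroblasts the size of the gap depended on how the classes were summed. With the median over members in place of the mean it was 0.032 in Tsk2 fibroblasts and -0.042 in WT fibroblasts, and without Mki67, Top2a and Ccna2 it was -0.098 and -0.16.

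**Figure D2:**
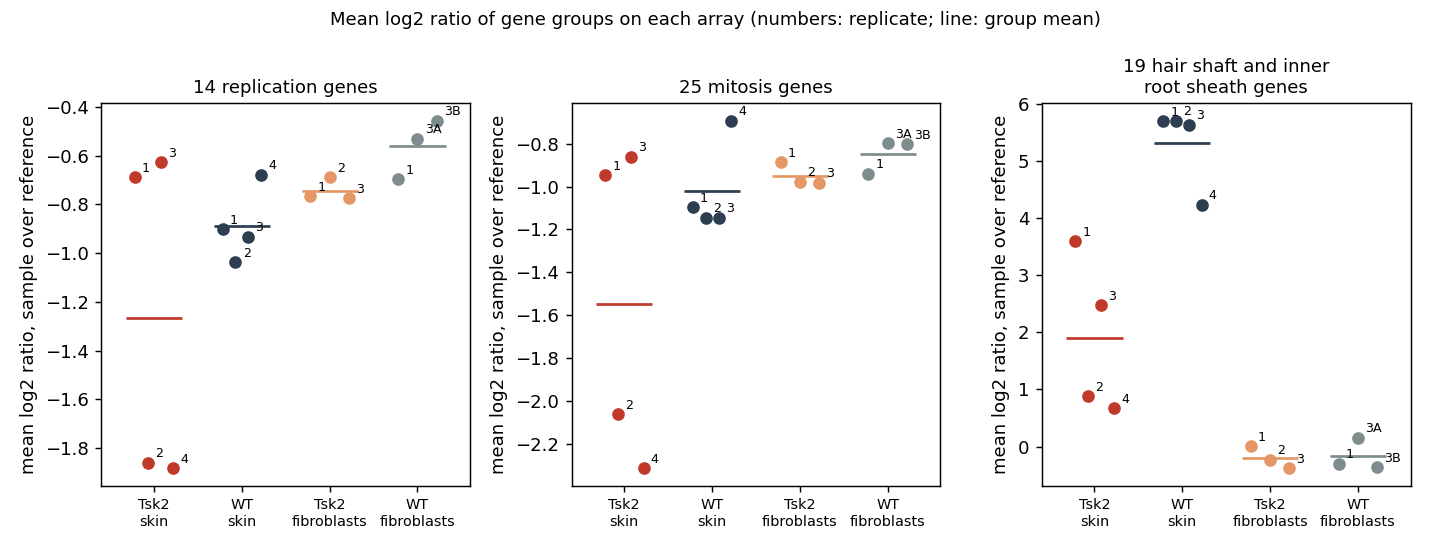
Mean log2 ratio over the reference (vertical axes) of 14 replication genes, 25 mitosis genes and 19 hair shaft and inner root sheath genes on each of the 14 arrays, by group. Points are arrays with their replicate number and lines are group means; Tsk2 skin 2 and 4 lie lowest in both cell division panels, at -1.86 and -1.88 for replication and -2.06 and -2.32 for mitosis.

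In skin, Tsk2 minus WT asked whether the mutation goes with a changed level of these genes at 4 weeks. Differences pointed down in 37 of 39 members, all 14 replication genes and 23 of 25 mitosis genes, where 47.3% of all genes tested were lower. The median difference was -0.36 for replication genes and -0.49 for mitosis genes, against 0.03 over all genes. By limma with Benjamini-Hochberg adjustment over all genes, 0 of 39 members passed an adjusted p of 0.05, where 2.91% of all genes did (568 genes), and 1 member, Cenpe, had an unadjusted p under 0.05, against 23.1% of all genes. Tpx2 was the only member whose Tsk2 mice all lay below all WT mice, where 6.75% of all genes were so. The 2 members that did not point down were Ttk at 0.065 and Cenpa at 0.0031. The Cenpa value averaged 2 probes, 1 of them at repeated values on 13 of 14 arrays. The Cenpa probe without repeated values read -1.01, -2.67, -1.02 and -2.95 in Tsk2 mice 1 to 4. In WT mice 1 to 4 that probe read -1.37, -1.30, -1.32 and -0.94, so Tsk2 mice 2 and 4 lay below all WT mice on it.

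The lower means came from 2 of the 4 Tsk2 mice. Tsk2 mice 2 and 4 lay below all WT mice in 34 and 33 of 39 members, where 26.2% and 24.8% of all genes did so in these mice. Tsk2 mice 1 and 3 lay below all WT mice in 2 and 3 members, and above all of them in 3 and 13. Mice 2 and 4 were the 2 lowest of the 8 skin arrays in 32 of 39 members, against 9.97% of all genes. Their medians relative to the WT mean were -1.06 and -1.20 over the 39 members, against 0.12 and 0.20 in Tsk2 mice 1 and 3. The median SD within Tsk2 skin was accordingly 0.745 for replication and 0.834 for mitosis genes, against 0.285 over all genes, whereas within WT skin it was 0.285 and 0.311, against 0.319 over all genes. Without Tsk2 mouse 2 the medians of the differences were -0.16 for replication and -0.36 for mitosis genes, and without Tsk2 mouse 4 they were -0.091 and -0.23, with 34 of 39 members still lower in each case. In bulk skin, fewer dividing cells and less of these RNAs per cell cannot be told apart.

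**Figure D3:**
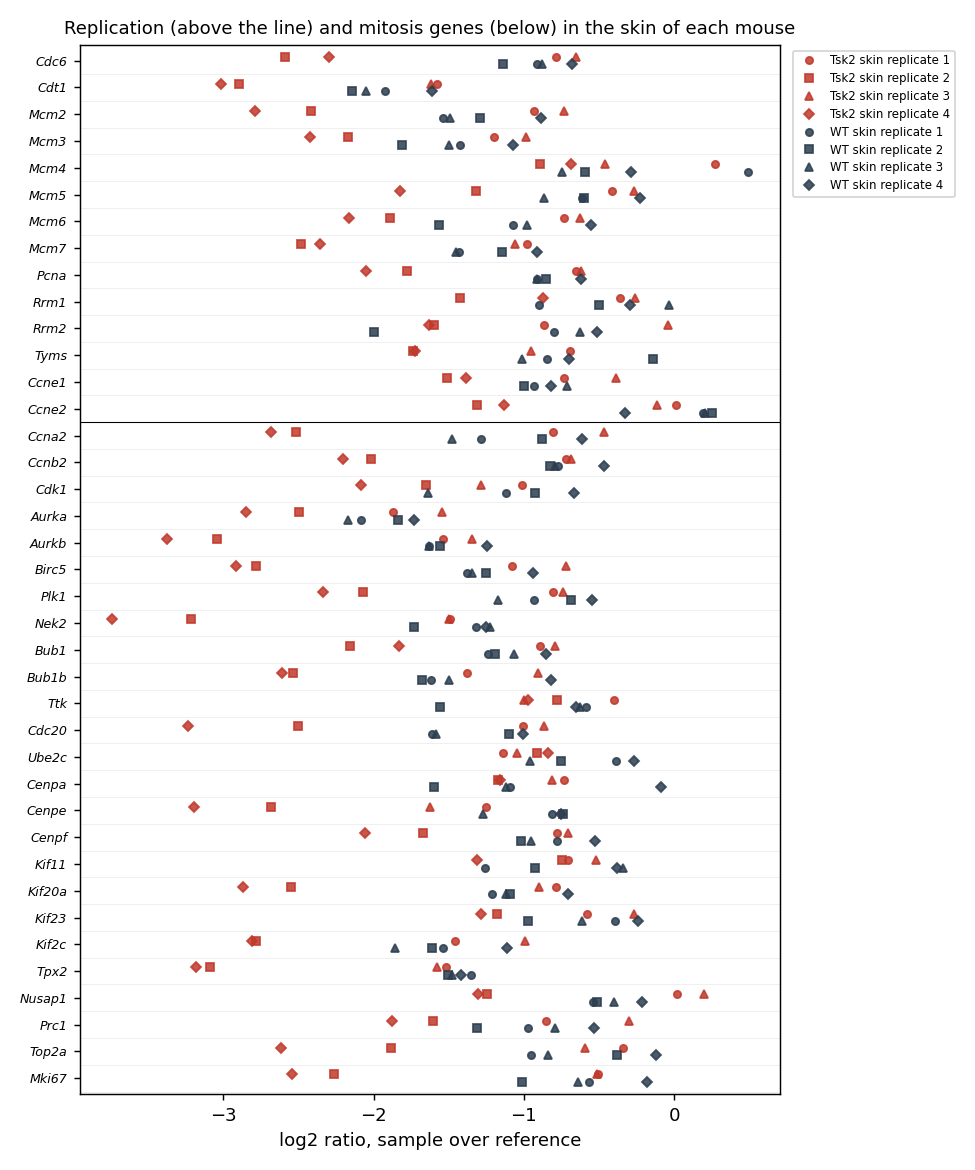
Log2 ratio over the reference (horizontal axis) of the 39 measured members in the skin of each mouse, with replication genes above the line and mitosis genes below it. Each symbol is 1 mouse, Tsk2 in red and WT in dark blue; the squares and diamonds of Tsk2 mice 2 and 4 lie left of all WT mice in 34 and 33 members.

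Among the licensing factors and helicase subunits, Cdc6, which loads the helicase, read -0.78, -2.59, -0.65 and -2.30 in Tsk2 mice 1 to 4, against -0.91, -1.14, -0.88 and -0.68 in WT mice 1 to 4. Mcm2 read -0.93, -2.42, -0.73 and -2.79 in Tsk2 mice and -1.54, -1.29, -1.49 and -0.89 in WT mice. In both genes Tsk2 mice 2 and 4 were the lowest, Tsk2 mice 1 and 3 lay among or above the WT mice, and the genotypes overlapped. The differences were -0.68 ± 0.44 for Cdc6 and -0.42 ± 0.46 for Mcm2 (SE, limma; adjusted p = 0.396 and 0.630). The other licensing and helicase genes, Cdt1 and Mcm3 to Mcm7, differed by -0.48 to -0.16. Pcna, the sliding clamp that holds polymerases on DNA, read -0.65, -1.78, -0.62 and -2.05 in Tsk2 mice, against -0.91, -0.85, -0.91 and -0.62 in WT mice, with the same 2 mice low and an adjusted p of 0.461 by limma.

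Averaged over probes, the nucleotide synthesis genes varied more among themselves, and Tyms and Rrm1 held probes at repeated values on most arrays. For Rrm1, the probe at repeated values on 1 of 14 arrays had Tsk2 mice 2 and 4 lowest. It read -0.72, -2.02, -0.44 and -2.0 in Tsk2 mice, against -1.23, -1.0, -1.20 and -0.74 in WT mice. Tyms, thymidylate synthase, with 31.0% of its values at repeated values, read -0.69, -1.74, -0.95 and -1.73 in Tsk2 mice, against -0.84, -0.14, -1.01 and -0.70 in WT mice, a difference of -0.60 ± 0.30 (SE, limma; adjusted p = 0.267). In WT mouse 2 its probe at repeated values on 13 of 14 arrays read 1.67, and the probes without them read -1.05 and -1.04. The latter lay between -2.66 and -2.13 in Tsk2 mice 2 and 4, and between -1.46 and -0.85 in WT mice. Rrm2, the small subunit of ribonucleotide reductase, read -0.87, -1.60, -0.038 and -1.63 in Tsk2 mice and -0.80, -2.0, -0.63 and -0.51 in WT mice. Here WT mouse 2 was the lowest of all, so the groups overlapped fully and the difference was -0.049 ± 0.44 (SE). Of the E cyclins, which start DNA synthesis, Ccne2 read 0.013, -1.31, -0.12 and -1.13 in Tsk2 mice, against 0.19, 0.25, 0.21 and -0.33 in WT mice, and its difference of -0.72 ± 0.33 (SE, limma; adjusted p = 0.233) was the largest in the class. Ccne1 read -0.73, -1.51, -0.39 and -1.39 in Tsk2 mice, against -0.93, -1.0, -0.71 and -0.82 in WT mice, and differed by -0.14 ± 0.26 (SE).

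Of the mitosis genes, the centromere motor gene Cenpe differed most. It read -1.25, -2.68, -1.62 and -3.20 in Tsk2 mice, against -0.81, -0.74, -1.27 and -0.76 in WT mice. All Tsk2 mice lay below WT mice 1, 2 and 4, and Tsk2 mouse 1 overlapped WT mouse 3. The difference of -1.30 ± 0.41 (SE, limma) had an unadjusted p of 0.0119 and an adjusted p of 0.110. This order rested on 1 of the 3 Cenpe probes, at repeated values on 3 of 14 arrays. It read -1.47, -2.05, -2.04 and -2.85 in Tsk2 mice, against 0.052, 0.31, -1.20 and -0.49 in WT mice. On another probe, Tsk2 mice 1 and 3 read -1.01 and -1.08, inside the WT range of -1.27 to -0.73. On the last, Tsk2 mouse 1 read -1.29, inside the WT range of -1.56 to -1.05. Tsk2 mice 2 and 4 lay below all WT mice on all 3 probes. In 1 fit over all 14 arrays, which adds the fibroblasts to the estimate of the spread, Cenpe alone among the members fell past the threshold (adjusted p = 0.0312). Tpx2, a spindle assembly factor that activates Aurora A, read -1.52, -3.09, -1.58 and -3.18 in Tsk2 mice, against -1.35, -1.50, -1.48 and -1.42 in WT mice. Tsk2 mouse 1 lay only just under the lowest WT mouse, and the difference of -0.91 ± 0.40 (SE, limma) had an adjusted p of 0.221.

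Nek2, a kinase of centrosome separation, read -1.49, -3.22, -1.50 and -3.74 in Tsk2 mice and -1.32, -1.73, -1.23 and -1.25 in WT mice, with WT mouse 2 below Tsk2 mice 1 and 3, a difference of -1.11 ± 0.51 (SE, limma; adjusted p = 0.236). Mki67 read -0.51, -2.26, -0.51 and -2.54 in Tsk2 mice, against -0.57, -1.01, -0.64 and -0.18 in WT mice, a difference of -0.86 ± 0.49 (SE, limma; adjusted p = 0.337). Top2a, the topoisomerase that untangles sister chromatids, read -0.34, -1.88, -0.59 and -2.62 in Tsk2 mice, against -0.95, -0.38, -0.84 and -0.12 in WT mice. In these values of Mki67 and Top2a, averaged over probes, Tsk2 mice 1 and 3 lay inside the WT range, mice 2 and 4 far below it. Top2a averaged 3 probes, 1 of them at repeated values on 10 of 14 arrays. On a Top2a probe without repeated values Tsk2 mouse 2 read -1.04, inside the WT range of -1.17 to 0.21. Tsk2 mouse 4 lay below all WT mice on all 3. Cdk1, the kinase that drives entry into mitosis, read -1.01, -1.65, -1.29 and -2.08 in Tsk2 mice, against -1.12, -0.93, -1.64 and -0.66 in WT mice, where WT mouse 3 lay level with Tsk2 mouse 2 (adjusted p = 0.415 by limma). A Cdk1 probe at repeated values on 11 of 14 arrays read -1.53 in WT mouse 3 and -0.88 in Tsk2 mouse 2. The probe without them read -1.79, -2.42, -1.97 and -2.85 in Tsk2 mice, against -1.70, -1.85, -1.75 and -1.33 in WT mice. On it Tsk2 mice 2, 3 and 4 lay below all WT mice. Mice 2 and 4 were not the 2 lowest of the skin arrays in the mitosis genes Ttk, Ube2c, Cenpa and Kif11, named after their values were seen, in which 14.3% to 46.4% of the values were repeated values.

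Marker lists moved beside these genes in skin, and their part in the differences was not tested. Of 25 hair shaft and inner root sheath genes, 19 were measured and all 19 were lower in Tsk2 skin, 9 of them past the threshold, where 0.998% of all genes fell. The list mean was 3.59, 0.88, 2.47 and 0.68 in Tsk2 mice 1 to 4, against 5.69, 5.70, 5.63 and 4.23 in WT mice 1 to 4. Tsk2 mice 2 and 4, lowest in the cell division genes, were also the lowest here, but Tsk2 mice 1 and 3, which were not low in the cell division genes, lay below all WT mice too. Krt25, a keratin of the inner root sheath, read 6.39, 0.33, 5.71 and 0.10 in Tsk2 mice and 7.11, 7.24, 6.56 and 6.05 in WT mice, and Krt34, a keratin of the hair shaft, read 2.19, -0.50, 0.45 and 0.51 in Tsk2 mice, against 6.30, 6.95, 6.44 and 4.37 in WT mice. Of 12 fibroblast genes, 3 rose (Pdgfrb, Lum and Col5a1), where 1.91% of all genes did, and the list mean was 1.93 to 2.10 in Tsk2 mice and 0.96 to 1.68 in WT mice. Basal keratinocyte genes, with 1 of 8 risen (Dst), had a mean of 3.05, 3.84, 2.98 and 2.89 in Tsk2 mice, against 2.77 to 2.94 in WT mice. Means of the melanocyte list were 3.23, 1.58, 2.92 and 1.79 in Tsk2 mice, against 4.30, 2.55, 4.38 and 3.43 in WT mice. Of its 7 measured genes 0 passed the threshold and 5 had an unadjusted p under 0.05 by limma, against 23.1% of all genes. The endothelial and skeletal muscle lists did not overlap between the genotypes. The endothelial mean was 2.69, 2.96, 2.48 and 2.81 in Tsk2 mice, against 2.22, 1.72, 2.33 and 2.30 in WT mice, and the skeletal muscle mean was 4.98, 6.32, 5.23 and 5.06 in Tsk2 mice, against 4.67, 4.85, 4.60 and 4.27 in WT mice. In both lists all 8 measured genes were higher in Tsk2 skin and 0 passed the threshold by limma. An unadjusted p under 0.05 by limma was found for 1 endothelial and 5 muscle genes, against 23.1% of all genes.

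Most other cell division genes of wider lists also had lower means in Tsk2 skin. Of 47 measured other replication genes 42 were lower in Tsk2 skin, with a median difference of -0.27. Of 62 other mitosis genes 54 were lower or, in the case of Kif15, unchanged, with a median of -0.38. By limma 0 passed the threshold in either list, and 3 and 1 had an unadjusted p under 0.05, against 23.1% of all genes. The lowest of these p-values in each list belonged to a gene that was higher in Tsk2 skin without overlap, Orc3 at 0.61 and Pttg1 at 0.68, and the other 2 replication genes were lower. The mean of the other replication genes was -0.82, -1.54, -0.72 and -1.69 in Tsk2 mice, against -0.96, -1.08, -1.0 and -0.69 in WT mice, and that of the other mitosis genes was -1.0, -1.84, -0.89 and -2.17 in Tsk2 mice, against -1.13, -1.28, -1.22 and -0.92 in WT mice, again with Tsk2 mice 2 and 4 lowest. The lists of 7 G1 cyclins and kinases, 8 CDK inhibitors and 21 cell cycle transcription regulators had 0 genes past the threshold and 3 each at an unadjusted p under 0.05, with median differences of -0.28, -0.0087 and -0.22.

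In fibroblasts, Tsk2 minus WT asked what the transfected allele does in cultured cells without a Col3a1 of their own. Among the members, differences were smaller than in skin and leaned down more in the replication than in the mitosis genes. The median difference was -0.28 for replication and -0.11 for mitosis genes, against -0.00033 over all genes, and 28 of 39 members were lower, where 50.1% of all genes were. By limma 0 of 39 members passed the adjusted p of 0.05, where 0.0512% of all genes did (10 genes), and 8 members, 7 of them replication genes, had an unadjusted p under 0.05, against 11.2% of all genes. Of these 8 members 7 were lower and 1, the replication gene Mcm4, was higher. All Tsk2 samples lay below all WT samples in 11 members, where 10.2% of all genes were so. These were the replication genes Mcm2, Mcm3, Mcm5, Mcm6, Mcm7, Cdt1, Pcna and Tyms and the mitosis genes Bub1b, Birc5 and Kif2c. WT replicate 1 lay nearest to the Tsk2 samples in most of these, and without it 23 members were lower without overlap, 11 replication and 12 mitosis genes. In the wider lists given below, genes of both kinds leaned down.

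Among the licensing genes, Cdt1, the partner of Cdc6 in loading the helicase, read -2.24, -2.15 and -2.17 in Tsk2 fibroblasts 1 to 3, against -1.96, -1.57 and -1.45 in WT fibroblasts 1, 3A and 3B. Mcm6 read -1.56, -1.47 and -1.44 in Tsk2 fibroblasts and -1.22, -0.94 and -0.88 in WT fibroblasts, and Mcm2 read -1.30, -0.86 and -1.01 in Tsk2 fibroblasts and -0.81, -0.68 and -0.85 in WT fibroblasts. None of the 3 overlapped between the alleles, with the narrowest distance in Mcm2, where Tsk2 replicate 2 and WT replicate 3B nearly met. The differences were -0.52 ± 0.15 for Cdt1, -0.48 ± 0.12 for Mcm6 and -0.28 ± 0.14 for Mcm2 (SE, limma; adjusted p = 0.350, 0.318 and 0.498). Pcna read -0.87, -0.84 and -0.86 in Tsk2 fibroblasts, against -0.66, -0.51 and -0.54 in WT fibroblasts, a difference of -0.29 ± 0.087 (SE, limma; adjusted p = 0.365) with no overlap. Mcm3, Mcm5 and Mcm7, named here after their values were seen, differed by -0.35, -0.35 and -0.34 (adjusted p = 0.407 to 0.435 by limma).

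Of the 11 members with a higher mean in Tsk2 fibroblasts, Mcm4 was the only member without overlap, where 9.82% of all genes were so. It read 0.013, 0.34 and 0.025 in Tsk2 fibroblasts and -0.27, -0.49 and -0.54 in WT fibroblasts (difference 0.56 ± 0.14, SE, limma; adjusted p = 0.305). Its probes disagreed. The probe without repeated values read -0.54, -0.49 and -0.56 in Tsk2 fibroblasts, against -0.52, -0.31 and -0.28 in WT fibroblasts, and the other, at repeated values on 12 of 14 arrays, read 0.56, 1.16 and 0.61 in Tsk2 fibroblasts and -0.016, -0.67 and -0.80 in WT fibroblasts. Without probes at repeated values on at least 50% of the arrays, a setting chosen after seeing the data, Mcm4 differed by -0.16. Rrm2 read -0.51, -0.40 and -0.68 in Tsk2 fibroblasts, against -0.54, -0.54 and -0.71 in WT fibroblasts, and differed by 0.067 ± 0.11 (SE), with overlap between the alleles. Ccne1 stood above the reference, at 1.04, 0.96 and 1.02 in Tsk2 fibroblasts, against 0.97, 1.23 and 1.18 in WT fibroblasts, and overlapped between the alleles.

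Of the mitosis genes, Aurka read -1.38, -1.24 and -1.19 in Tsk2 fibroblasts, against -1.23, -0.70 and -0.62 in WT fibroblasts, where WT replicate 1 lay among the Tsk2 samples (difference -0.42 ± 0.18, SE, limma; adjusted p = 0.461). Nek2 showed the same order, at -1.38, -1.30 and -1.14 in Tsk2 fibroblasts and -1.20, -0.88 and -0.78 in WT fibroblasts (adjusted p = 0.474 by limma). Mki67 was far below the reference with both alleles, at -2.35, -2.21 and -2.27 in Tsk2 fibroblasts and -2.33, -2.47 and -2.54 in WT fibroblasts, and Top2a read -1.02, -1.23 and -1.18 in Tsk2 fibroblasts, against -1.09, -0.89 and -1.28 in WT fibroblasts. Both genes overlapped between the alleles, with differences of 0.17 ± 0.10 and -0.058 ± 0.13 (SE). Cdk1 read 1.29, -0.071 and 0.23 in Tsk2 fibroblasts, against 0.050, -0.076 and 0.095 in WT fibroblasts, and its difference of 0.46 ± 0.36 (SE) rested on replicate 1 of a probe at repeated values on 11 of 14 arrays, which read 2.96 there. The other Cdk1 probe read -0.37, -0.51 and -0.38 in Tsk2 fibroblasts, against -0.31, 0.046 and 0.037 in WT fibroblasts.

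Most genes of the wider lists also had lower means in Tsk2 fibroblasts, 39 of 47 other replication and 49 of 62 other mitosis genes. Tsk2 samples lay below all WT samples in 21 of 47 other replication genes and in 23 of 62 other mitosis genes, against 10.2% of all genes, with median differences of -0.18 and -0.12. By limma 0 genes of the 5 cell cycle lists passed the threshold, and 11 other replication and 16 other mitosis genes had an unadjusted p under 0.05, against 11.2% of all genes. All 11 and 14 of the 16 were lower, and Hjurp at 0.32 and Ska1 at 0.67 were higher without overlap. The mean of the other replication genes was -0.91, -0.89 and -0.88 in Tsk2 fibroblasts, against -0.78, -0.73 and -0.68 in WT fibroblasts, so that its alleles did not overlap. That of the other mitosis genes was -0.83, -0.84 and -0.85 in Tsk2 fibroblasts, against -0.79, -0.70 and -0.71 in WT fibroblasts, also without overlap. Fibroblast markers, with 8 of 12 higher without overlap where 9.82% of all genes were so and 0 past the threshold (5 higher and 1 lower, Lum, at an unadjusted p under 0.05 by limma), averaged 1.03 to 1.23 in Tsk2 fibroblasts and 0.76 to 0.84 in WT fibroblasts, and their part in the cell division values was not tested.

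**Figure D4:**
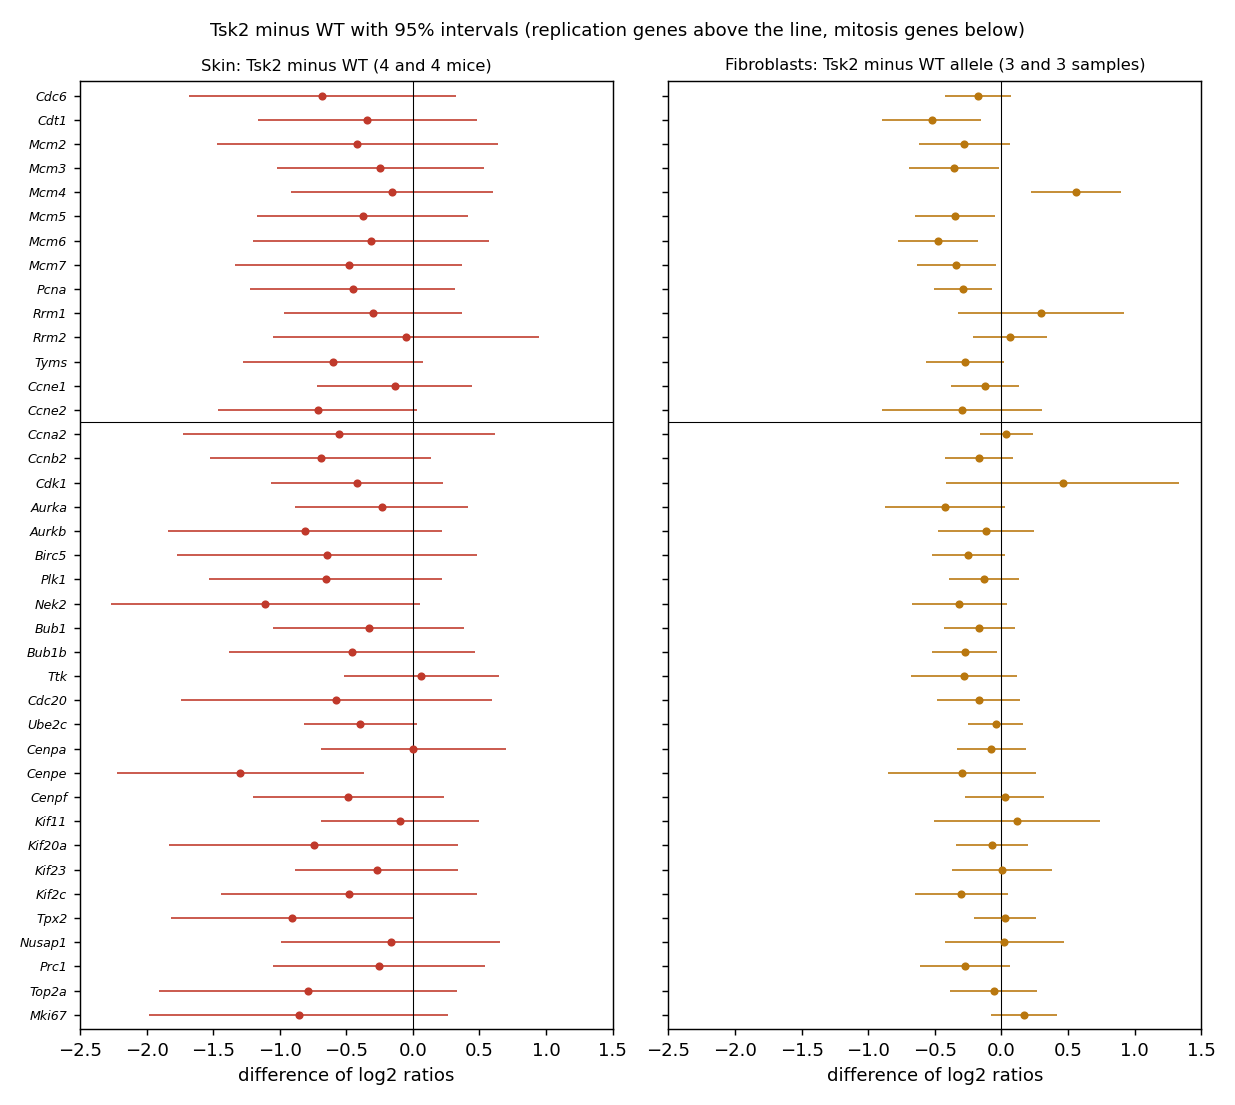
Difference Tsk2 minus WT of the log2 ratios (horizontal axes) for the 39 measured members in skin (left, 4 and 4 mice) and fibroblasts (right, 3 and 3 samples), with 95% intervals from limma as bars. Skin intervals are wide and nearly all cross 0, with Cenpe at -1.30 as the exception, while Mcm6 at -0.48 and Cdt1 at -0.52 lie farthest below 0 in fibroblasts.

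The Tsk2 effects of skin and fibroblasts were then compared directly, as the difference of the differences over all 14 arrays. The value was below 0 in 32 of 39 members, where 48% of all genes were lower. By limma 0 of 39 members passed the threshold, where 1.4% of all genes did, and 0 members had an unadjusted p under 0.05, against 17.5% of all genes. The median of the skin effect minus the fibroblast effect was -0.14 for replication and -0.41 for mitosis genes, against 0.024 over all genes. Without Tsk2 skin replicate 2 or 4 the replication median was 0.081 or 0.088, opposite in sign. The lowest adjusted p was that of Cdk1, at -0.88 ± 0.47 (SE; 0.362), followed by Tpx2 at -0.93 ± 0.51 and Cenpe at -1.0 ± 0.55 (SE; adjusted p = 0.369 and 0.373). For Mki67 the value was -1.03, for Top2a -0.73, for Mcm4 -0.72, for Rrm1, the large subunit of ribonucleotide reductase, -0.60 and for Cdc6 -0.50. Repeated values made up 39.3% of the values of Cdk1, 42.9% of Mcm4 and 53.6% of Rrm1, and without probes at repeated values on at least 50% of the arrays these genes stood at -0.26, -0.20 and -0.23. Mcm2, Pcna, Rrm2 and Ccne1 lay between -0.17 and -0.018, with 95% intervals that reached from -1.43 to 1.15 for Mcm2, so the intervals held differences of either sign.

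Pttg1, securin, which guards sister chromatids until anaphase, was the only gene of the 5 other cell cycle lists past the threshold in that contrast. It read -0.66, -0.09, -0.48 and -0.38 in Tsk2 skin, against -1.17, -0.98, -1.30 and -0.91 in WT skin, and -0.91, -0.84 and -0.83 in Tsk2 fibroblasts, against -0.54, -0.54 and -0.56 in WT fibroblasts. All Tsk2 mice were higher than all WT mice and all Tsk2 fibroblasts lower than all WT fibroblasts, and the difference between the effects was 1.0 ± 0.20 (SE, limma; adjusted p = 0.0370). Within each system it did not pass the threshold, at 0.68 ± 0.17 in skin and -0.32 ± 0.081 in fibroblasts (SE, limma; adjusted p = 0.0654 and 0.319). In skin it thus ran against most of the mitosis genes, and Tsk2 mice 2 and 4, low in those, were the highest in Pttg1.

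Skin was set against fibroblasts of the same genotype to see how the members are placed in tissue and in culture. RNA of the systems was extracted with different kits, so kit and tissue cannot be told apart. In Tsk2 skin over Tsk2 fibroblasts 7 of 39 members passed the threshold, all of them lower, where 43.5% of all genes passed, 24.1% higher and 19.4% lower. In WT skin over WT fibroblasts 13 of 39 passed, 3 higher and 10 lower, where 40.6% of all genes passed, 22% higher and 18.6% lower. In the WT contrast Mki67 rose most, Ccne1 fell most, and the 11 mitosis genes past the threshold went in both directions. The share of members past the threshold lay below the background in both contrasts, and the wide spread of Tsk2 skin enters the Tsk2 contrast.

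The E cyclins fell in skin. Ccne1 read -0.73, -1.51, -0.39 and -1.39 in Tsk2 skin, against 1.04, 0.96 and 1.02 in Tsk2 fibroblasts, and -0.93, -1.0, -0.71 and -0.82 in WT skin, against 0.97, 1.23 and 1.18 in WT fibroblasts. Every skin array lay below and every fibroblast array above the reference, a difference of -2.01 ± 0.28 in Tsk2 and -1.99 ± 0.14 in WT samples (SE, limma; adjusted p = 0.00075 and 3.67e-05), or 4.03-fold and 3.98-fold lower. Ccne2 fell by 1.68 on the log2 scale in Tsk2 samples and by 1.26 in WT samples (adjusted p = 0.0064 and 0.00426 by limma). No other replication gene passed the threshold in either contrast. Tyms differed by -0.81 in Tsk2 and -0.48 in WT samples (adjusted p = 0.0547 and 0.119 by limma), and Mcm2 by -0.66 in Tsk2 and -0.52 in WT samples (0.348 and 0.0578). Mcm5 differed by 0.41 in Tsk2 and 0.44 in WT samples, Pcna by -0.42 and -0.25, Rrm2 by -0.50 and -0.39, and Cdc6 by -0.70 and -0.20, none past it.

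Among the mitosis genes, Mki67 read -0.51, -2.26, -0.51 and -2.54 in Tsk2 skin, against -2.35, -2.21 and -2.27 in Tsk2 fibroblasts, so that Tsk2 mice 2 and 4 were level with the cultured cells and the difference of 0.82 ± 0.54 (SE, limma) did not pass the threshold (adjusted p = 0.265). In WT samples it was 3.6-fold higher in skin, at -0.57, -1.01, -0.64 and -0.18, against -2.33, -2.47 and -2.54 in fibroblasts (adjusted p = 0.000342 by limma). The difference between the Tsk2 and WT contrasts is the -1.03 given above, which did not pass it (adjusted p = 0.424 by limma). Cenpf, a kinetochore protein, differed by 0.32 in Tsk2 samples and rose by 0.83 in WT samples (adjusted p = 0.502 and 0.00536 by limma). Ccna2, cyclin A2, differed by 0.18 in Tsk2 samples and rose by 0.77 in WT samples (0.83 and 0.0272). Top2a, at -0.21 in Tsk2 and 0.51 in WT samples, passed in neither.

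Tpx2, Kif20a, Aurka and Cdk1 fell in skin in both genotypes, while other spindle and kinase genes did not pass the threshold, such as Nusap1 at 0.23 in Tsk2 and 0.42 in WT samples and Aurkb at -0.54 and 0.16, named after their values were seen. Tpx2 read -1.52, -3.09, -1.58 and -3.18 in Tsk2 skin, against -0.40, -0.34 and -0.44 in Tsk2 fibroblasts, and -1.35, -1.50, -1.48 and -1.42 in WT skin, against -0.49, -0.46 and -0.31 in WT fibroblasts. No skin array reached the fibroblasts, and it fell by 1.95 in Tsk2 samples and by 1.02 in WT samples (adjusted p = 0.00963 and 0.000443 by limma). Kif20a, a kinesin of cytokinesis, lay between -2.87 and -0.71 on all skin arrays, and near the reference in all fibroblasts, between -0.16 and 0.095. It fell by 1.73 in Tsk2 and by 1.05 in WT samples (adjusted p = 0.0327 and 0.00148 by limma), Aurka fell by 0.92 and by 1.11 (0.0438 and 0.00341), and Cdk1 fell by 1.99 and by 1.11 (0.00347 and 0.00709). In Cdk1 39.3% of the values were repeated values, and its probe without them read between -2.85 and -1.33 on the skin arrays, against -0.51 to 0.046 in fibroblasts. In Tsk2 samples the threshold was also passed by Ube2c, the ubiquitin-conjugating enzyme of the anaphase-promoting complex, which fell by 0.38 with 46.4% of its values at repeated values and whose difference was 0.080 with the most variable probe and 0.22 with exact zeros set to missing. That most variable probe was at repeated values on 13 of 14 arrays. The Ube2c probe without repeated values read -1.55, -2.73, -1.11 and -2.80 in Tsk2 skin, against -1.15, -1.24 and -1.21 in Tsk2 fibroblasts. On it Tsk2 mice 1, 2 and 4 lay below the Tsk2 fibroblasts and mouse 3 above them. In WT samples the threshold was also passed by Birc5, survivin, and by Prc1, Kif2c and Bub1, which fell by 0.49 to 0.73. The 2 Bub1 probes, neither at repeated values, disagreed. On 1 of them WT skin lay between -2.57 and -1.86, against -1.38 to -1.20 in WT fibroblasts. On the other WT skin lay between 0.03 and 0.36, against -0.10 to 0.25 in WT fibroblasts. For none of these genes did the difference between the Tsk2 and WT contrasts pass the threshold.

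Counts in these contrasts moved with single samples. The 7 members of the Tsk2 contrast became 4 without any 1 of the Tsk2 fibroblast samples or without Tsk2 skin replicate 2, and 10 without Tsk2 skin replicate 3. The 13 members of the WT contrast became 8 without WT fibroblast replicate 3A, without 3B, or with both averaged as 1 sample, and 16 without WT skin replicate 4.

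**Figure D5:**
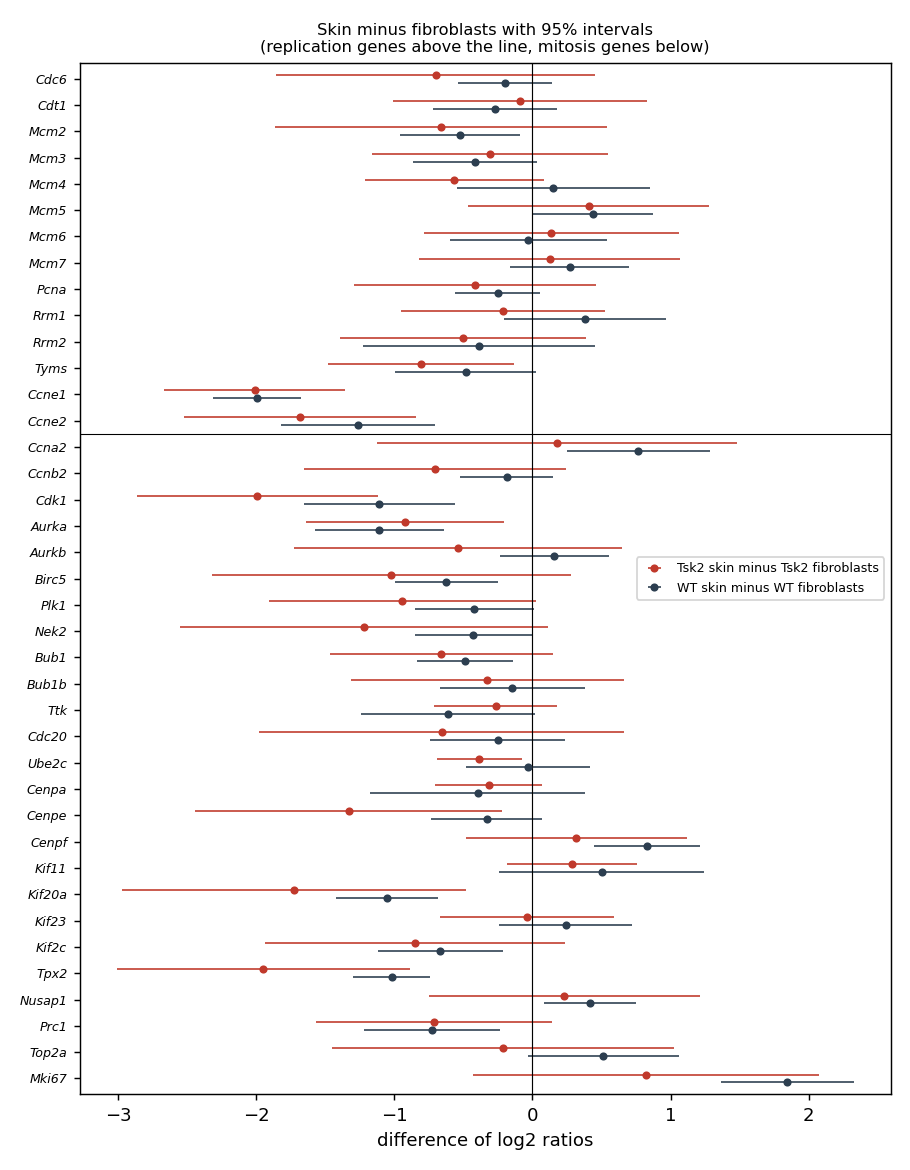
Difference skin minus fibroblasts of the log2 ratios (horizontal axis) for the 39 measured members, with 95% intervals from limma as bars, in Tsk2 samples (red) and WT samples (dark blue); replication genes stand above the line and mitosis genes below it. Ccne1 lies near -2 in both genotypes (-2.01 and -1.99), and Mki67 stands at 0.82 in Tsk2 and 1.85 in WT samples.

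Regulators of the cell cycle differed between skin and fibroblasts in both directions. Cdkn2a, the locus of the growth arrest proteins Ink4a and Arf, read -3.28 to -2.31 in Tsk2 skin and -3.54 to -2.95 in WT skin, and lay above the reference in all fibroblasts, so that it fell by 3.55 in Tsk2 and by 3.53 in WT samples (adjusted p = 2.2e-05 and 3.43e-05 by limma). E2f2, a transcription factor of the E2F family, rose by 3.53 in Tsk2 samples and by 4.65 in WT samples, and read -0.21 to 1.35 in Tsk2 skin, lowest in mice 2 and 4, and 1.66 to 2.50 in WT skin. Zwint, a kinetochore protein, fell by 2.82 in Tsk2 and by 2.98 in WT samples. Of 47 other replication genes, 2 rose and 10 fell in Tsk2 samples, and 4 rose and 11 fell in WT samples. Of 62 other mitosis genes, 2 rose and 18 fell in Tsk2 samples, and 8 rose and 26 fell in WT samples. Over all genes 24.1% rose and 19.4% fell in Tsk2 samples, and 22% rose and 18.6% fell in WT samples. The helicase partner Gins2 fell by 1.29 in Tsk2 and by 1.54 in WT samples. Ccnd2, cyclin D2, differed by 0.16 in Tsk2 samples and rose by 1.26 in WT samples (adjusted p = 0.644 and 0.00043 by limma), and the Tsk2 effect in skin minus that in fibroblasts, which is the difference between these contrasts, was -1.10 ± 0.30 (SE; adjusted p = 0.0866).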

How the data were processed

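RNA of 8 skin and 6 fibroblast samples was measured on 14 two-colour arrays. The deposited values are log2 ratios of Cy5 over Cy3, the sample dye and the reference dye per the labels. The base and direction are not stated in words in the sources used here and were read from the dyes and the range of the values, and the authors' background correction and normalization are not given. Array medians lay near 0, and 0 columns matched no sample.

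Of 41174 probes, 32664 had 1 gene symbol and 45 several, and probes of a gene were averaged to 19532 genes. The members and gene lists were chosen with earlier results of these data known. Each comparison was fitted on its own arrays with limma 3.58.1 in R 4.3.3, the difference of effects on all 14, with Benjamini-Hochberg adjustment over all genes and a threshold of 0.05. Python 3.11.15, pandas 2.3.3 and matplotlib 3.10.9 were also used. Per comparison and class, up to 6 members past the threshold by size of difference were named, where fewer than 3 passed the 3 largest others, and always Mki67, Top2a, Cdk1, Pcna, Mcm2, Rrm2 and Ccne1. Tested on simulated data, the skin fit found 30% of genes changed by 1 and 80% of those changed by 2 on the log2 scale, and the fibroblast fit 45% and 76%. The changed genes were drawn at random from all genes. Within Tsk2 skin the median SD was 0.745 for replication and 0.834 for mitosis genes, against 0.285 over all genes. The simulated shares in skin therefore do not give those for the members. Alternatives were other normalizations, probe rules, filters, fits and left-out samples. Deviations of the fibroblast samples from their group means were correlated between alleles. Same-numbered pairs had r = 0.019, 0.0082 and 0.017, against -0.025 to 0.0069 in the other pairs. Such small r over few samples cannot tell whether same-numbered samples shared more than a number.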

Additional observations from a re-analysis of the deposited data

Results flagged for a closer look

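Among 52 groups of 4 samples examined, 4 held a sample whose gap to the nearest other was past Dixon's 95% critical value, and chance flags about 1 in 20 groups. Ccne2 in WT skin replicate 4 was -0.33, against 0.19 to 0.25 in the other WT mice. Cenpe in WT skin replicate 3 was -1.27, against -0.81 to -0.74 in the others. Its probe at repeated values on 3 arrays read -1.20 there, against -0.49 to 0.31 in the others. In WT skin replicate 4 the mitosis mean was -0.69, against -1.15 to -1.10 in the others, and the hair list mean was 4.23, against 5.63 to 5.70. Pttg1 differed in its Tsk2 effect between skin and fibroblasts by 1.0 (adjusted p = 0.0370 by limma).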

How the results depend on the processing

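Members lower in Tsk2 skin without overlap numbered 4 with quantile normalization and 2 with the most variable probe, against 1, and 1 to 3 with a sample left out. In 1 fit for 14 arrays 1 member passed in skin. Without probes at repeated values on 50% of the arrays or more, a setting chosen after seeing the data, the fibroblast differences were 0.096 for Top2a, -0.34 for Cdk1 and -0.16 for Mcm4, and the class gap in WT fibroblasts was -0.39. With the replicate block on the number in the fibroblast labels Rrm2 was -0.016 in fibroblasts and 0 members and 0 genes passed, against 0 and 10. Ccne1 in the difference of effects was 0.13 with quantile normalization. With WT fibroblasts 3A and 3B averaged 8 members passed in the WT contrast, against 13. In the Tsk2 contrast Top2a was 0.58 and Ube2c 0.080 with the most variable probe, and Ube2c was 0.22 with exact zeros missing. The class gap was -0.098 in Tsk2 and -0.16 in WT fibroblasts without Mki67, Top2a and Ccna2, and 0.032 and -0.042 with medians. With a sample left out, skin differences ran from -0.39 to 0.15 for Rrm2 and -0.34 to 0.032 for Ccne1, and fibroblast Top2a from -0.15 to 0.040. Fibroblast members lower without overlap ran from 11 to 23. Differences of effects ran from -0.22 to 0.15 for Ccne1, -0.38 to 0.092 for Pcna, -0.47 to 0.22 for Mcm2 and -0.45 to 0.083 for Rrm2. Members past the threshold ran from 8 to 16 in the WT contrast and from 4 to 10 in the Tsk2 contrast, with Top2a there from -0.55 to 0.21. The causes were not tested. Genes called in skin, 568, became 0 without Tsk2 mouse 2, 3 or 4 or WT mouse 1, 2 or 3, and 1827 without WT mouse 4, 2814 in 1 fit, 1341 with array weights, and 1123 and 1963 without probes repeated on every array or on 50% of them. Genes called in fibroblasts, 10, became 5 with the most variable probe, 1 with exact zeros missing, 16 with array weights and 72 without probes repeated on 50% of the arrays, and 0 to 3 with a sample left out or with 3A and 3B averaged. Genes called in the difference of effects, 273, became 851 without probes repeated on 50% of the arrays, 7 with 3A and 3B averaged, and 6 to 1492 with a sample left out. In the WT and Tsk2 contrasts the counts of genes moved by less than 1.5 times. Dim probes limit these values: Mcm4, Cdk1 and Ube2c rest in part on them.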
